A study of Mus musculus with 34 samples.

Results

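Ribosomal protein genes were followed through all sample groups of a mouse methylation array study by the CpG islands that carry their names. Probes were members if their gene name was Rpl or Rps with a number and an optional a or x, or Rplp0, Rplp1, Rplp2 or Rpsa, and if they lay on an autosome. Neighbouring probes with gaps of at most 500 bases were joined into islands, and an island with at least 3 such probes on all arrays was a member. There were 63 member islands of 58 genes among 13227 islands in all, and they held 366 probes, of which 333 carried a ribosomal name. Of 386 probes with such a name, 368 were autosomal and 352 of these were on every array. A further 7 scored islands held only 1 or 2 such probes and were left out. The members lay on 17 autosomes. The large subunit had 34 islands and the small subunit 29.

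Ribosomal proteins assemble with ribosomal RNA into the large and the small subunit of the cytosolic ribosome, which makes protein in every cell. Their genes are classical housekeeping genes with promoters rich in CpG, a kind of promoter that usually stays free of DNA methylation in normal tissue. Many of their transcripts begin within a run of pyrimidines, known for its part in the control of their translation.

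The study asked how DNA methylation at CpG islands in embryonic stem (ES) cells compares with that in normal mouse tissue. Methylated DNA was precipitated with an antibody against 5-methylcytidine (mDIP), and bound DNA in Cy5 was hybridised against input DNA in Cy3 on 34 CpG island arrays. The log ratio of bound over input was turned into a Z-score over the probes of each array. The score of an island is the mean Z of its probes, so it is a level relative to the array and not a percentage of methylated DNA, and 0 is the mean probe.

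There were 16 arrays of adult tissue from mice of 3 months of age and of both sexes, with 2 arrays each of colon, pancreas, brain, kidney, liver, lung, muscle and spleen. By the study's methods the mouse DNA came from C57Bl/6 animals. Whole embryos gave 5 arrays, 1 each at 8.5, 9.5, 10.5, 11.5 and 12.5 days, so the embryonic group is a series of stages and not of repeats. Undifferentiated ES cells gave 3 arrays, 1 for each of the lines EB5, J1 and TT2. ES cells differentiated in vitro gave 5 arrays, namely embryoid bodies from TT2, cells treated with retinoic acid, 2 of endoderm and 1 of mesoderm. Endoderm and mesoderm were derived from EB5 and sorted with reporters after culture with Activin A. The labels name TT2 as the parent of the retinoic acid cells, whereas the methods name J1. There were 2 teratomas, tumours grown from ES cells in immunodeficient NOD-SCID mice. The labels give J1 as their origin and the methods other lines. Single arrays were made of β cells sorted from islets of Pdx1-GFP mice, of the β cell line Min6 and of the α cell line aTC, written alphaTC here. Apart from the 2 endoderm and 2 teratoma arrays, each ES cell or embryo array is alone of its kind, and nothing in the labels says that paired tissue arrays came from separate animals, so p-values measure the spread between these arrays.

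Input signals exceeded the local background 3.07-fold to 7.34-fold in the median of an array. Bound signals exceeded it 1.54-fold to 5.59-fold. The number of arrays limits the precision. The J1 array stood apart, with a correlation of 0.113 between its scanner values and the authors' processed table, against 0.894 to 0.991 on the other arrays. The embryo arrays shared 0 slides, 0 scan days and 0 scanner software versions with adult tissue. They all held the smaller grid of 88737 probes, whereas adult arrays held either this or a larger grid of 97651. The mean and SD for Z came from all usable probes of each array. Differentiated cells shared 2 slides with adult tissue and 0 with embryos. Among Pou5f1, Nanog, Alb, Ins1, Ins2, Gcg and Myod1, only Myod1 had a scored island, so cell identity could not be checked by such genes.

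The ribosomal islands fell into 2 kinds by position. In 56 islands at least 1 probe lay within 241 bases of the annotated start of the gene. In the other 7 islands the nearest probe lay 3540 to 12463 bases away. This split was drawn after the values had been seen and is used for description only. The distant islands were upstream of Rps24, Rps10 and Rps29 and downstream of the starts of Rpl7, Rpl12, Rpl14 and Rpl22. The newer gene names in the files of the smaller grid give the Rpl22 downstream probes to Chd5, the Rps24 upstream probes to Polr3a alone or with Rps24, and the Rps29 upstream probes to Ppil5 alone or with Rps29. The ribosomal name of these 3 islands is therefore a matter of the annotation used. Chd5 encodes a chromatin remodelling protein and Polr3a the largest subunit of RNA polymerase III. The files name no genome build, and island positions are given as the files have them.

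Promoters are shown for 5 genes on which the results turn. Rpl6 had the lowest adult level, Rpl23 one of the highest, Rpl35 fell in differentiated cells, and Rps10 and Rpl38 were higher in embryos. Each sequence runs from 120 bases before to 30 bases after the RefSeq start in GRCm38.p6, 5′ to 3′ on the strand of the gene, with every CpG in capitals. They were matched by symbol, since the build of the arrays is not named.

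Rpl6, chr5:121204381-121204530, plus strand: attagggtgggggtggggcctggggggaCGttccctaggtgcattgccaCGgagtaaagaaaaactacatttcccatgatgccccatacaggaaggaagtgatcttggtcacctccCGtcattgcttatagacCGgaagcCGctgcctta
Rpl23, chr11:97782410-97782559, minus strand: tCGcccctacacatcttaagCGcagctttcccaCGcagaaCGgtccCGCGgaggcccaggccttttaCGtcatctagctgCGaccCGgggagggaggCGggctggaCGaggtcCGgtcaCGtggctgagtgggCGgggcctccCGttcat
Rpl35, chr2:39005102-39005251, minus strand: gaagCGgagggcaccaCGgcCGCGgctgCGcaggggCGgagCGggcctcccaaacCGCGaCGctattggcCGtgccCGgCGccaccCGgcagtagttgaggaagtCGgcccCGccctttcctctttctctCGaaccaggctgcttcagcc
Rps10, chr17:27635215-27635364, minus strand: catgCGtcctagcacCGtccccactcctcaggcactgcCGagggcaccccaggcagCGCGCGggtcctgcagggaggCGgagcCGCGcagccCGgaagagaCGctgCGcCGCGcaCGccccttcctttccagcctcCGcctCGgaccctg
Rpl38, chr11:114668460-114668609, plus strand: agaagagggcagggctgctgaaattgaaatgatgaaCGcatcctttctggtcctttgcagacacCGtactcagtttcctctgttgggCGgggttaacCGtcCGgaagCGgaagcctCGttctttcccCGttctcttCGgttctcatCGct

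These stretches held 5, 15, 17, 17 and 10 CpG in the order shown. RefSeq promoter windows of 250 bases before to 50 bases after the start were matched for 37 of the 56 genes with a start-site island, as 43 windows. They held 8 to 39 CpG with a median of 21, against a median of 7 over all 31396 autosomal windows. The median ratio of observed to expected CpG was 0.857, against 0.389. The ribosomal genes here all had an island on a CpG island array, whereas all windows include genes without one. A higher content of CpG, and of motifs that hold a CpG, is in part fixed by this choice. Windows of other genes with a start-site island were not compared. The motif CGGAAG, read on both strands, was present in 62.8% of the ribosomal windows and in 17.0% of all windows. GGGCGG was present in 58.1% and 36.0%, AAGATGGC in 9.30% and 2.75%, and CTTTCC in 48.8% and 26.7%. An unbroken run of at least 5 C or T bases over the start was present in 32.6% and 10.2%. Among the 32 genes with 1 window, the number of CpG in the window and the mean adult score had a Spearman rho of -0.0061, given as a description over genes measured on the same arrays.

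In adult tissue nearly all ribosomal islands had low scores. The mean over the 16 adult arrays was below 0 in 60 of 63 islands (95.2%), against 74.7% of all islands. The median of these means was -0.35 for the ribosomal islands and -0.25 for all islands. A score below 0 on every adult array was seen in 26 of 63 (41.3%). Over all islands it was seen in 33.6%, so on this strict count the ribosomal islands were close to the background. The count depends on the scale, which sets the place of 0. With each array centred on its median probe it was 15 of 63, against 18.8% of all islands. A score above 0.75 on any of the 34 arrays was seen in 4 of 63 islands, against 35.6% of all islands. All 4 were distant islands, and 0 of the 56 start-site islands passed 0.75 on any array.

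The lowest adult mean was that of Rpl6, a protein of the large subunit, at -0.78 ± 0.23 (SD, n = 16). Its adult arrays ran from -1.34 through a median of -0.78 to -0.36, and its single values elsewhere ran down to -1.18 in mesoderm. Rps3, a protein of the small subunit that also takes part in DNA repair, had -0.62 ± 0.22, and Rplp1, a protein of the ribosomal stalk, had -0.59 ± 0.19. Rps14 and Rpl32 followed at -0.58 ± 0.23 and -0.57 ± 0.23. On each of these 5 islands all 16 adult arrays were below 0. Neighbours in this order differed by less than the spread between arrays.

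The highest start-site island was that of Rps29, at 0.02 ± 0.19 over the adult arrays. Rpl23 followed at -0.01 ± 0.19. The Rps29 arrays ran from -0.45 through a median of 0.04 to 0.24, so adult values lay on both sides of 0. Rps29 was the only start-site island with an adult mean above 0.

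From array to array the start-site islands stayed low as a set. Their median lay below 0 on all 34 arrays, from -0.66 in alphaTC to -0.12 in the embryo of 9.5 days. Over the adult arrays the median averaged -0.34 ± 0.10 (SD, n = 16), over undifferentiated ES cells -0.35 ± 0.07 (n = 3) and over differentiated ES cells -0.33 ± 0.04 (n = 5). The J1 array had -0.43, EB5 -0.30 and TT2 -0.34. Embryos had -0.20 ± 0.07 (n = 5) and the teratomas -0.21 ± 0.03 (n = 2). The median of all islands was -0.24 ± 0.05 in adult tissue, -0.16 ± 0.08 in undifferentiated ES cells, -0.17 ± 0.02 in differentiated ES cells and -0.18 ± 0.04 in embryos. The ribosomal median thus lay under that of all islands in ES cells and close to it in embryos.

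**Figure D1:**
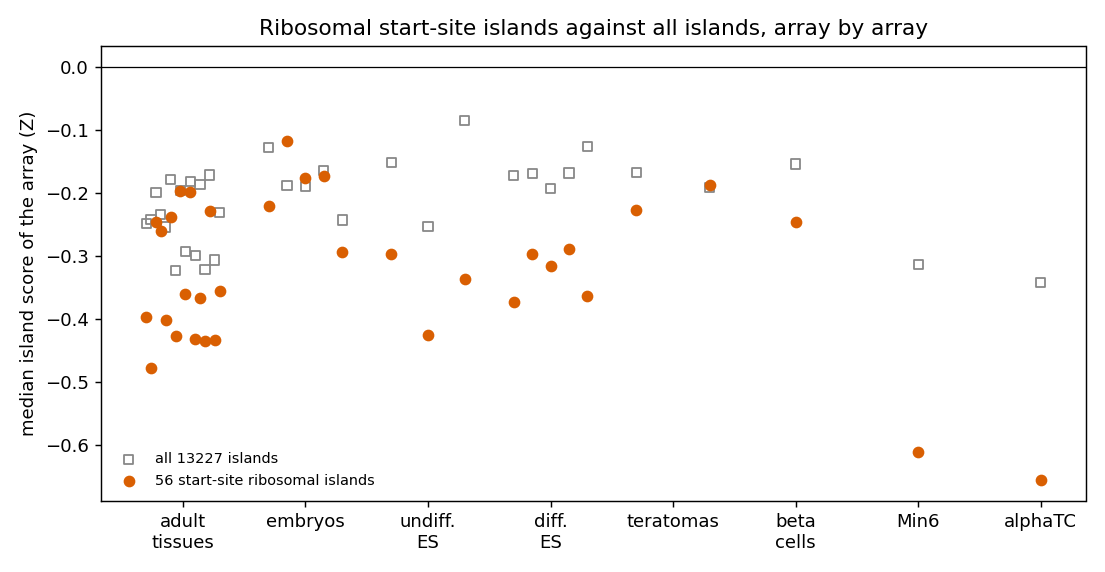
Median island score (Z, vertical axis) of each of the 34 arrays, by sample group. Orange points are the 56 start-site ribosomal islands and open squares all 13227 islands. The orange points lie below 0 on all arrays, and lowest on Min6 (-0.61) and alphaTC (-0.66).

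Both subunits had like levels at their starts. The 30 large-subunit start-site islands had a median of -0.35 over the adult arrays and -0.33 over the differentiated arrays. The 26 small-subunit islands had -0.38 and -0.35. Along the start-site islands the probe Z had a mean below 0 in every distance bin of every group. In adult tissue it was -0.41 ± 0.09 (SD over 16 arrays) for the 65 probes within 200 bases before the start. It was -0.27 ± 0.08 for the 67 probes within 200 bases after it, and -0.46 ± 0.11 for the 69 probes at 200 to 400 bases after it. Embryos had the same order, at -0.27, -0.12 and -0.36. In undifferentiated ES cells, at -0.52, -0.24 and -0.43, and in differentiated ES cells, at -0.51, -0.34 and -0.47, the bin before the start was the lowest of the 3.

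**Figure D2:**
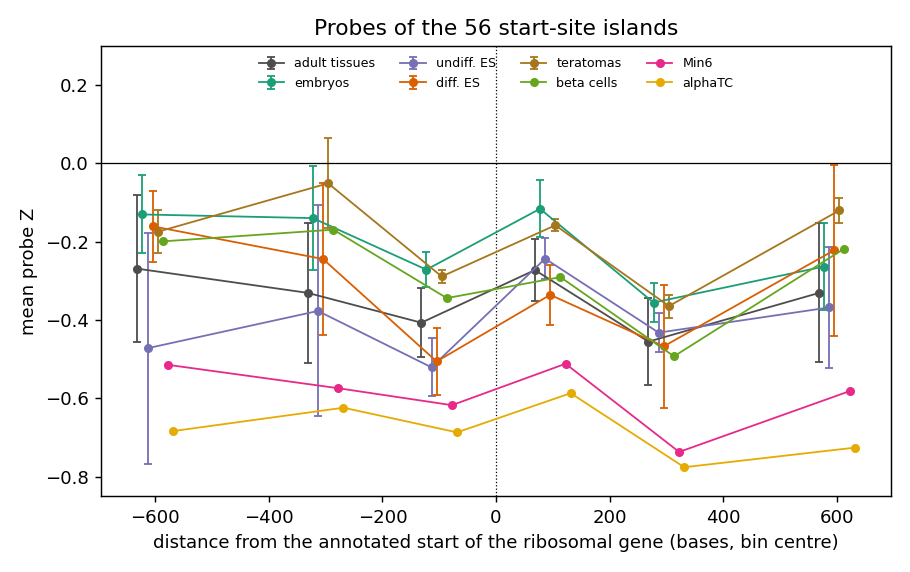
Mean Z of the probes of the 56 start-site islands (vertical axis) by distance from the annotated start in bases (horizontal axis, bin centres, drawn with a small shift between groups). Points are means over the arrays of a group and bars the SD over arrays, with no bar for the 3 single arrays. All groups lie below 0, with Min6 and alphaTC lowest.

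One ribosomal island scored high in every sample. It lay upstream of Rps10, a small-subunit gene, at chr17:27366643-27367031, and its 4 probes lay at -4180 to -3838 bases from the annotated start. The 16 adult arrays ran from 1.20 through a median of 2.38 to 2.93, and the mean was 2.26 ± 0.46. The embryos gave 2.10, 2.19, 2.27, 2.32 and 2.22 from 8.5 to 12.5 days. Undifferentiated cells gave 1.89 (EB5), 3.09 (J1) and 1.83 (TT2). Differentiated cells ran from 1.64 to 2.43, and Min6 and alphaTC gave 1.65 and 1.49. All 34 arrays were above 0.75, which on the 16 adult arrays was true of 7.40% of all islands. The Rps10 island at the start itself, at chr17:27362438-27363048, had an adult mean of -0.33 ± 0.17 and was below 0 on all adult arrays. The J1 value was the highest of all arrays, and without it the undifferentiated cells had 1.89 and 1.83.

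In ES cells differentiated in vitro, 4 distant ribosomal islands were higher than in adult tissue and 2 start-site islands were lower. Among all islands 15.6% were higher and 7.87% lower in this comparison (limma, Benjamini-Hochberg adjusted p under 0.05), 23.4% in all. The ribosomal share was 4 of 63 higher and 2 of 63 lower, which is below that background in both directions. Of the 56 start-site islands 0 were higher, and 31 had a positive difference, close to an even split. All 4 higher islands were among the 7 far from the annotated start of the ribosomal gene. Their distance from the starts of other genes was not measured. The median difference was 0.03 for the ribosomal islands and 0.01 for all islands. Blocking by slide also called 6 of 63 (limma), but not the same 6, with 2 higher and 4 lower. Rpl14 downstream, Rps24 upstream and Rpl35 were not among them. The share of all islands called under this block is not reported here.

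The largest rise was at the island downstream of Rpl7, a large-subunit gene, at chr1:16078095-16078353 with 3 probes. The adult arrays ran from -0.58 through a median of 0.06 to 0.74. Embryoid bodies had 1.07, endoderm 1.22 and 1.35, mesoderm 1.43, and the retinoic acid cells 0.05. The first 4 lay above every adult array, and the retinoic acid cells lay within the adult range. The difference was 0.94 ± 0.17 (SE, limma adjusted p = 9.77e-05), and all 3 probes were higher, by 0.90, 0.73 and 1.20. Undifferentiated cells had 0.70 (EB5), 0.30 (J1) and 0.40 (TT2).

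The island downstream of Rpl22, at chr4:151182118-151182848, had 4 probes, which the newer names give to Chd5. The adult arrays ran from -0.35 through a median of -0.14 to 0.15. The differentiated values were 0.69 in embryoid bodies, 0.23 in retinoic acid cells, 0.65 and 0.38 in endoderm and 0.70 in mesoderm. All 5 lay above all adult arrays. The difference was 0.66 ± 0.09 (limma adjusted p = 3.14e-06). With background correction by normexp it was 0.48 with a limma adjusted p of 0.124. Undifferentiated cells had 0.08 (EB5), -0.18 (J1) and 0.37 (TT2). The TT2 value was above all adult arrays and above the retinoic acid cells, but below embryoid bodies. The Rpl22 island at the start itself had means of -0.18 in adult tissue and -0.10 in differentiated cells, and did not pass the test.

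At the island downstream of Rpl14, a large-subunit gene, at chr9:120425681-120426366, the adult arrays ran from -0.44 through -0.12 to 0.32. Differentiated cells had 0.44 in embryoid bodies, 0.10 in retinoic acid cells, 0.60 and 0.58 in endoderm and 0.76 in mesoderm. The difference was 0.56 ± 0.12 (limma adjusted p = 5.62e-04), and all 7 probes were higher. Embryos had a mean of 0.47 on the Rpl14 downstream island, near the 0.50 of differentiated cells. Blocking by slide gave Rpl14 downstream a difference from adult tissue of 0.43 with a limma adjusted p of 0.0800. The island upstream of Rps24 at chr14:23319214-23319627, with probes given to Polr3a by the newer names, rose by 0.24 ± 0.08 (limma adjusted p = 0.0306). Its differentiated values of -0.01 to 0.34 lay below the embryo mean of 0.49 and overlapped the adult range of -0.25 to 0.19. This call was lost when any of 3 differentiated arrays was left out, with an adjusted p of 0.0826 without embryoid bodies, 0.0882 without endoderm replicate 1 and 0.0976 without endoderm replicate 2. It was also lost when blocking by slide (adjusted p = 0.137). The other distant islands, downstream of Rpl12 and upstream of Rps29, were low in both groups, at -0.52 and -0.46 in adult tissue and -0.39 and -0.27 in differentiated cells.

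**Figure D3:**
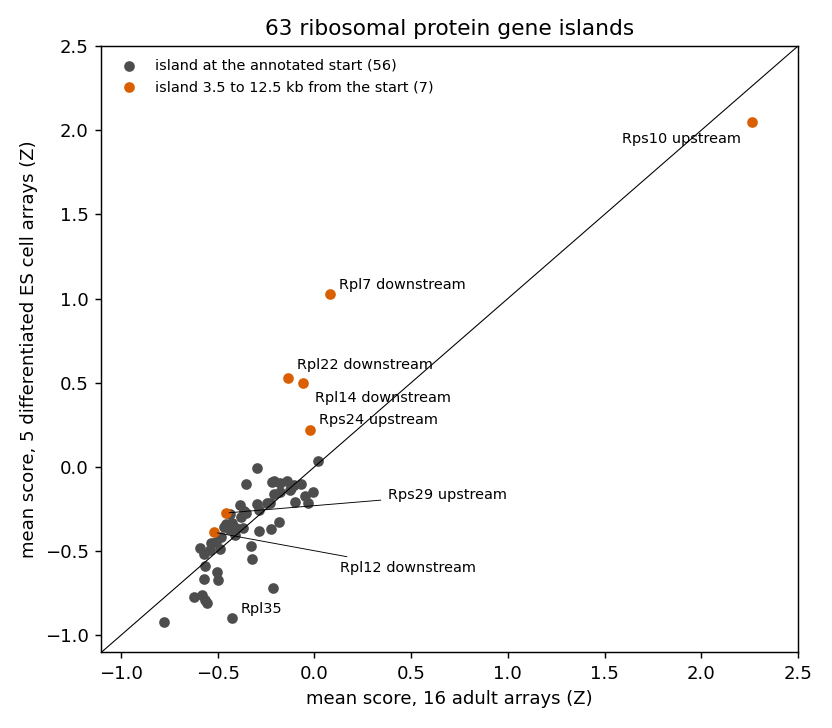
Mean score of each of the 63 ribosomal islands in adult tissue (horizontal axis, 16 arrays, Z) and in differentiated ES cells (vertical axis, 5 arrays, Z), with the line of equality. Grey points are start-site islands and orange points the 7 distant ones. The Rpl7, Rpl22, Rpl14 and Rps24 distant islands lie above the line, Rpl35 below it, and Rps10 upstream is high in both.

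The start-site island of Rpl35, a gene of the large subunit, moved the other way. Rpl35, at chr2:38826707-38827309, had adult values from -1.04 through -0.39 to -0.01. Its differentiated values of -0.74, -1.06, -1.09, -0.74 and -0.86 overlapped the colon arrays (-1.04 and -0.79) and lay below the other 14. The difference was -0.47 ± 0.11 (limma adjusted p = 0.00265), and its 4 probes differed by -0.25, -0.65, -0.48 and -0.50. Blocking by slide gave Rpl35 a difference of -0.40 with a limma adjusted p of 0.0867.

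Pairs of arrays on a shared slide had the same directions on these islands. The arrays were among those that gave the calls, so the pairs are a description and not a separate test. Endoderm replicate 2 minus pancreas replicate 1 gave 1.44 for Rpl7 downstream, 0.73 for Rpl22 downstream, 0.29 for Rpl14 downstream, 0.27 for Rps24 upstream and -0.41 for Rpl35. Embryoid bodies minus brain replicate 2 gave 1.05, 0.95, 0.58, 0.28 and -0.39 in the same order. The cells compared here are mixtures, and a higher score from more methylated cells cannot be told apart from one with more methylation in each cell.

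**Figure D4:**
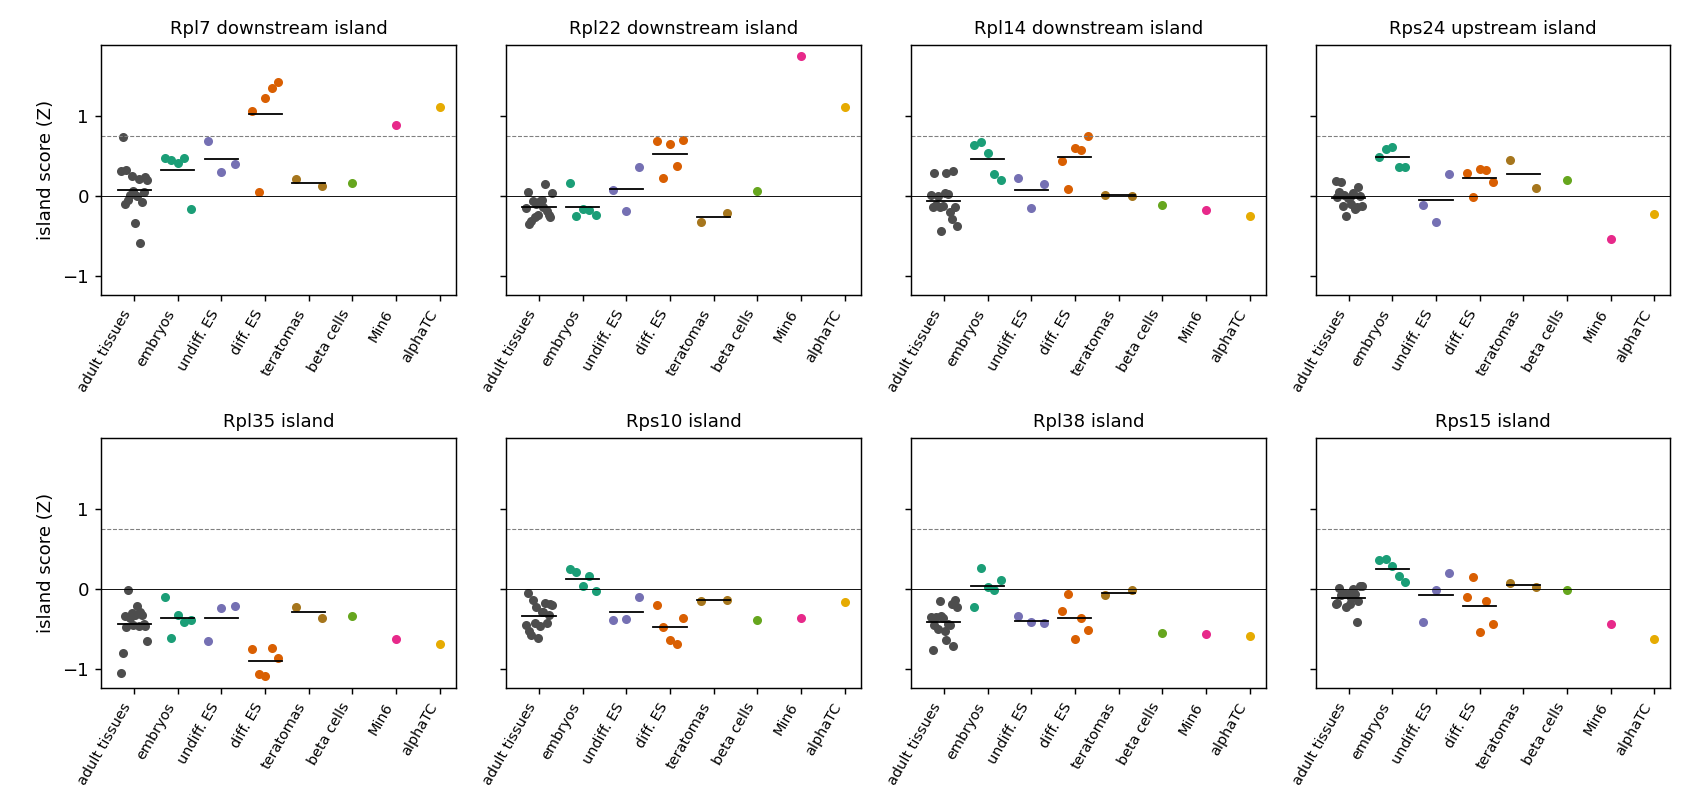
Score (Z) of 8 ribosomal islands on each of the 34 arrays, by sample group. Points are arrays, the bar is the group mean where there is more than 1 array, and the dashed line marks 0.75. Rpl7, Rpl22 and Rpl14 downstream are high in most differentiated ES cells, and Rpl35 is low there. Rpl14 downstream has a like mean in embryos (0.47 against 0.50). Rps24 upstream has a higher mean in embryos (0.49) than in differentiated ES cells (0.22). The group means of Rps10, Rpl38 and Rps15 are highest in embryos.

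On the embryo arrays the ribosomal islands as a set scored higher than on the adult ones. Between embryos and adult tissue 11 of 63 were higher and 0 lower (limma, adjusted p under 0.05), against 5.78% higher and 3.04% lower among all islands, 8.82% in all. The share of 17.5% was above that background. The median difference was 0.15 for the ribosomal islands and 0.06 for all islands. Of the 56 start-site islands 40 had a positive difference (71.4%), against 64.4% of all islands. Of the 11, 9 were at a start.

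The start-site island of Rps10 had the largest difference among these 9. The adult arrays ran from -0.61 through -0.30 to -0.05, and the embryos gave 0.25, 0.22, 0.05, 0.17 and -0.02 from 8.5 to 12.5 days. The groups did not overlap, and the difference was 0.46 ± 0.09 (limma adjusted p = 0.00104). Rpl38, known for its part in the translation of Hox genes in the mouse embryo, rose by 0.44 ± 0.10 (adjusted p = 0.00329) with embryo values of -0.22 to 0.27. Rps15 reached a positive mean of 0.26, from -0.10 in adult tissue, with a difference of 0.36. All 5 embryo values of Rps15 (0.09 to 0.38) were above all adult values (-0.41 to 0.04). Rpl21 and Rps13 rose by 0.37 each, Rpl5 by 0.32 and Rpl41 by 0.30. Rpl5 is a part of the particle that links faulty ribosome assembly to p53. The 2 distant islands were Rpl14 downstream at 0.53 ± 0.12 and Rps24 upstream at 0.51 ± 0.08. The Rps24 upstream embryo values of 0.36 to 0.62 lay above every adult array.

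These embryonic calls rest on arrays made apart from the adult ones. With the slide, the scan day or the software version as a block, each of which links embryos to adult tissue only through arrays of other groups, 0 of 63 were called and 0.0529%, 0% and 0.0151% of all islands. The median ribosomal difference was then 0.05, 0.11 and 0.08. Normexp background correction also gave 0 of 63, with the share of all islands not reported here. Stage and batch cannot be told apart here. The probe grid differed as well. Start-site medians ran from -0.37 to -0.20 on adult arrays of the smaller grid. They ran from -0.48 to -0.25 on adult arrays of the larger grid and from -0.29 to -0.12 in embryos. The part played by the grid was not tested. On the shared slide, the embryo of 8.5 days minus TT2 cells gave 0.35 for Rps10, 0.20 for Rpl38, 0.16 for Rps15, 0.34 for Rpl21, 0.60 for Rps13, 0.35 for Rpl5, 0.49 for Rpl14 downstream and 0.22 for Rps24 upstream. Rpl41 went the other way, at -0.025. The start-site median was also higher on this embryo array, -0.22 against -0.34 on TT2, while that of all islands was lower, -0.13 against -0.09. TT2 is an ES cell array, so this pair does not compare embryos with adult tissue. Without the embryo of 9.5 days 5 of the 63 were called, and without any other embryo 7 to 9. The shares of all islands with an embryo left out are not reported here.

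Undifferentiated ES cells had 0 of 63 ribosomal islands called against adult tissue (limma), with 4 at an unadjusted p under 0.05. Among all islands 2.62% were called, 1.14% higher and 1.47% lower, and 17.4% had an unadjusted p under 0.05. The median difference was 0.01, against 0.05 for all islands. Without the J1 array the count was also 0, against 9.15% of all islands. The lowest adjusted p was 0.254. On the deposited processed table, which scores 19 of the 63, 3 were called, all higher, against 27.1% of all islands.

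Between differentiated and undifferentiated ES cells, 3 of 63 islands were called (limma), 1 higher and 2 lower, against 5.68% of all islands, 3.84% higher and 1.84% lower. Rpl22 downstream was higher by 0.44 ± 0.13 (adjusted p = 0.0464). Rpl35 was lower (difference -0.54 ± 0.16, adjusted p = 0.0461). All 3 calls were lost without the J1 array and none remained with either median-centred scale. Without the retinoic acid cells 5 of the 63 were called, and without any other differentiated array 1, with the shares of all islands not reported here.

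Against embryos, differentiated ES cells had 2 ribosomal islands higher and 10 lower (limma), with 11.8% higher and 9.83% lower among all islands, 21.6% in all. The higher ones were Rpl7 downstream at 0.69 ± 0.21 and Rpl22 downstream at 0.66 ± 0.11. The lower ones were all start-site islands and included Rps10 (-0.60 ± 0.11), Rpl35, Rpl5, Rps15, Rps24, Rpl13, Rpl38 and Rpl37 (-0.34 ± 0.11). This comparison shares the embryo arrays with the one above and the differentiated arrays with the one before it. It gave 0 ribosomal calls with the slide, the scan day or the software version as a block and 2 with normexp. The shares of all islands under these alternatives are not reported here.

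**Figure D5:**
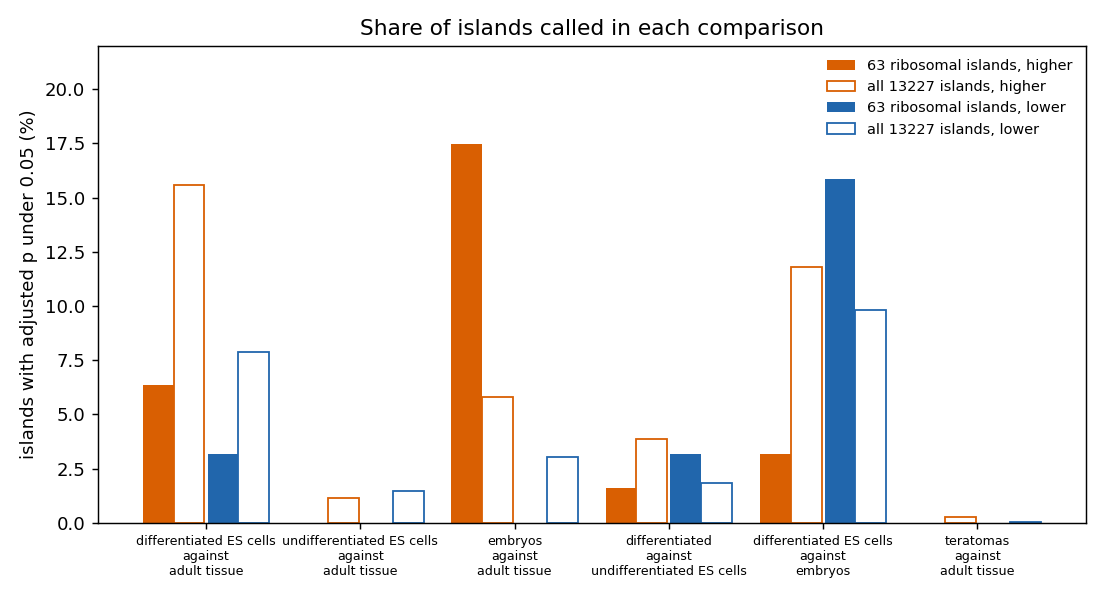
Percentage of islands with an adjusted p under 0.05 (vertical axis, from 0) in 6 comparisons. Filled bars are the 63 ribosomal islands, open bars all 13227, with orange for higher and blue for lower in the group named first. The ribosomal share is below the background in differentiated ES cells against adult tissue and above it in embryos, where 11 islands were higher.

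The 2 teratomas had 0 of 63 called against adult tissue (limma) and 0.333% of all islands, with 10 ribosomal islands and 7.95% of all islands at an unadjusted p under 0.05. The median difference was 0.11, against 0.05 for all islands. The Rpl7, Rpl22 and Rpl14 downstream islands had teratoma values of 0.21 and 0.13, of -0.32 and -0.21, and of 0.02 and 0.01. All 6 lay within the adult ranges of these islands. So did the array of J1, the origin of the teratomas by the labels, at 0.30, -0.18 and -0.15. The labels give EB5 or TT2 as the origin of the differentiated cells, so line and setting cannot be told apart here.

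Between the 8 adult tissues 0 of 63 islands differed (limma moderated F, adjusted p under 0.05), against 0.0983% of all islands. At an unadjusted p under 0.05 there were 2 ribosomal islands and 4.17% of all islands. They were Rpl35 (F = 3.45, adjusted p = 0.993) and Rpl17 (F = 3.41), both lowest in colon, at -0.92 and -0.64, and highest in brain, at -0.18 and 0.21. The upstream Rps10 island had the next largest F (2.51), from 1.60 in liver to 2.74 in pancreas. With 2 arrays a tissue only large differences could pass. In brain, kidney, liver, lung, muscle and spleen the 2 arrays also differed in probe grid and scan day. Replicate 2 of each had the higher start-site median, as in kidney, with -0.43 on replicate 1 and -0.20 on replicate 2.

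The pancreatic cell lines had the lowest start-site scores of all arrays. The median of the 56 was -0.25 in sorted β cells, -0.61 in Min6 and -0.66 in alphaTC. Min6 was below β cells in 49 of 56 islands and alphaTC in 51, with a median difference of -0.32 and -0.39. Over all islands the median differences were -0.15 and -0.20, and 64.1% and 65.1% of islands were lower. Under each alternative score run, the median over all ribosomal islands scored, 19 to 64 of them, had the same direction. On the scale of each run it went from -0.18 to -0.54 for Min6 and from -0.28 to -0.61 for alphaTC. The median of all islands also fell in each, from -0.08 to -0.21 and from -0.09 to -0.26. With normexp Min6 had -0.20 for the ribosomal islands and -0.14 for all. A score above 0.75 was seen in 11.9% of all islands in β cells, 19.6% in Min6 and 23.2% in alphaTC. Each score is relative to its own array, so a lower score is not by itself a loss of methylation. The part played by this scaling was not tested. With 1 array of each there was no test.

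Unlike most ribosomal islands, the Rpl22 downstream island scored higher in the lines, at 0.06 in β cells, 1.75 in Min6 and 1.11 in alphaTC. Rpl7 downstream was 0.17, 0.90 and 1.11. They were the only ribosomal islands besides Rps10 upstream above 0.75 in a line. Rpl27, a large-subunit gene, had the next largest mean difference from β cells, 0.41, with -1.25 in β cells and -0.80 and -0.88 in the lines. All 3 arrays were below 0. The β cell value was the lowest of this 3-probe island on any array, and both lines lay within its adult range of -0.98 to 0.09. Since β cells were not below 0 on the Rpl22 and Rpl7 islands, 0 of 63 passed 0.75 in a line with β cells below 0, against 7.53% of all islands.

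Other genes of protein synthesis, gathered by the same rule, had like levels. The 58 islands of mitochondrial ribosomal proteins had a median adult score of -0.42 and were below 0 on every adult array in 28. The 53 islands of initiation and elongation factors had -0.34 and 23. The 12 of ribosome assembly factors had -0.42 and 7, and the 11 of aminoacyl-tRNA synthetases -0.40 and 6. All islands had a median of -0.25, with 33.6% below 0 on every adult array. In differentiated cells against adult tissue (limma) 2 mitochondrial ribosomal islands were higher and 1 lower, and 4 factor islands were higher and 4 lower. The assembly islands had 0 higher and 2 lower, and the synthetases had 0. Among all islands 15.6% were higher and 7.87% lower in this comparison. In embryos against adult tissue 11 of 58, 4 of 53, 3 of 12 and 0 of 11 were higher and 0 of each were lower. Among all islands 5.78% were higher and 3.04% lower. The 7.55% of the factor islands was near that background. The share among the mitochondrial ribosomal islands was 19.0%, near the 17.5% of the cytosolic ones. The paralogs Rps27l and Rpl22l1 had adult means of -0.48 ± 0.15 and -0.17 ± 0.24 and were called in no comparison.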

How the data were processed

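Per the labels, input and bound DNA of 34 mouse samples were hybridised on 2-colour Agilent arrays. The authors' Feature Extraction files give background-subtracted, dye-normalised log10 ratios of bound over input for each probe, besides the intensity of each channel. A table deposited by the authors gives one processed score for each probe, taken by melting temperature, and served as an alternative. Genome build and aligner are not given in the sources used here.

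Control spots and outlier spots were left out, and each array gave its own mean and SD for Z. Scores used the 88737 probes of both grids. Melting temperature was not used. Groups were fitted together with limma 3.58.1 in R 4.3.3 over 13227 islands, teratomas and tissues on their own arrays, with Benjamini-Hochberg adjustment at 0.05. Other steps ran in Python 3.11.15 (scipy 1.17.1, pandas 2.3.3, numpy 2.4.6). The fits were tested on simulated data.

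The members, lists and tests were chosen with earlier results of these data known. Named islands were those called in a comparison (at most 10 per direction), the 5 highest and lowest adult means, those with an adult mean above 0, the 3 largest F, the 3 with the highest mean of Min6 and alphaTC minus β cells, and those above 0.75 on any array. Rpl41, the start-site island of Rpl22, Rpl12 downstream and Rps29 upstream were named beside this rule, after their values were seen. Some islands that the rule names are counted but not reported here. Alternatives covered scale, background correction, source table, dim probes, island definition, test, batch and left-out arrays. Normexp (offset 50) used median signals, since mean signals were not in all files.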

Additional observations from a re-analysis of the deposited data

Results flagged for a closer look

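Over 48 groups of 5 embryo or differentiated arrays on the named islands, 4 single values stood far from the other 4 by Dixon's test, where chance gives about 1 in 20. At Rpl7 downstream the retinoic acid cells had 0.0494 against 1.07 to 1.43 in the other differentiated arrays, and the embryo of 12.5 days had -0.16 against 0.41 to 0.48 in the other embryos. The embryo of 8.5 days had 0.17 at Rpl22 downstream, where the others had -0.25 to -0.17, and -1.07 at Rpl32, where the others had -0.68 to -0.62. Its slide, scan day and software version differed from those of the other embryos, so its stage cannot be told apart from its batch.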

How the results depend on the processing

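Of 569 values of named islands under the alternatives, 378 kept their direction and side of the threshold, 176 kept the direction without passing the test and 15 reversed. Causes were not tested. Alternatives with all probes of each array, newer names, the software block, start-site islands alone and single adult arrays left out of the count below 0 were chosen after seeing the data. Normexp used median signals in place of the planned mean signals. Spots near background limit what low scores can show. The counts below are of ribosomal islands, without the share of all islands under each alternative. A change in them is therefore not shown to be particular to these islands.

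For differentiated ES cells against adult tissue, 6 islands became 1 of 19 on the deposited table, 3 of 47 with at least 5 probes and 2 at start sites alone. For undifferentiated cells against adult tissue, 0 became 3 on that table and 1 with input well above background. For embryos against adult tissue, 11 became 7 with median and MAD, 7 with median-centred log2 ratios, 0 with normexp, 4 on the table, 5 with the median of probes, 0 with slide, scan day or software version as a block and 5 with slide as a random block. For differentiated against undifferentiated cells, 3 became 0 with median and MAD, log2 ratios, normexp, median of probes, the methods' equal-variance test, the 2 groups alone or the slide block, and 1 with at least 5 probes or the software block. For differentiated cells against embryos, 12 became 2 with normexp, 3 on the table, 6 with at least 5 probes and 0 with the slide, day or software block. Teratomas against adult tissue gave 1 with normexp in place of 0, and the pancreatic lines 1 with the median of probes in place of 0. The 26 islands below 0 on every adult array became 15 with median and MAD or log2 ratios, 10 of 19 on the table, 17 of 38 with input well above background, 6 at a threshold of -0.25 and 50 at 0.25.

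With 1 array left out at a time the counts ran from 5 to 6 for differentiated cells against adult tissue, 10 to 14 against embryos and 0 to 5 against undifferentiated cells. They ran from 5 to 9 for embryos, 0 to 0 for teratomas, undifferentiated cells and tissues, and 26 to 28 for islands below 0. With the replicate number as a block the tissue comparison again gave 0. The numbers share no source in the labels, but in part they follow the batch. In brain, kidney, liver, lung, muscle and spleen, replicate 1 was on the larger grid and a shared scan day. Replicate 2 of these tissues was on the smaller grid and other scan days. Over 28 pairs the correlations ran from -0.32 to 0.47, with 11 over 0.1.

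Reversed differences of embryos against adult tissue were -0.049 for Rpl5 with normexp and, with the slide block, -0.50 for Rpl21, -0.18 for Rps15, -0.040 for Rpl41 and -0.070 for Rps24 upstream, and with the day block -0.031 for Rpl41 and -0.041 for Rps24 upstream. For differentiated cells against embryos the slide block gave 0.18 for Rpl13, 0.069 for Rps15, 0.042 for Rps24 and 0.19 for Rpl37, the day block 0.13 for Rpl37, and the software block -0.019 for Rpl7 downstream, 0.021 for Rpl13 and 0.033 for Rpl38.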
